A study of Mus musculus with 20 samples.

Results

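Double-positive (DP) donor T cells, which carry CD4 and CD8 together, were compared with CD4+ donor T cells of the same *Dnmt3a*-KO animals after transplantation. The libraries of DP cells from KO animals 1 to 4 were set against the CD4+ libraries of the same 4 numbers, which makes 8 of the 20 libraries measured. Genes entered the comparison when their mean normalized count over those 8 libraries was at least 10, and 12175 of 17101 genes did so. The other libraries were 4 of KO CD8+, 4 of WT CD4+ and 4 of WT CD8+ cells. WT DP cells were not analysed here.

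Donors were B6 mice of 6 to 12 weeks, and recipients were F1 mice of 8 to 12 weeks in a haploidentical model of graft-versus-host disease. T cells of donor origin were sorted from recipient spleens on day 10 after transplantation. KO donors (genotype DNMT3a KO, CD4-Cre 2loxP) were homozygous for a loxP-flanked *Dnmt3a* and carried Cre under the *Cd4* promoter, which acts in the thymus, so that later CD8+ and DP cells also derive from cells in which Cre was active. WT donors were littermates, and recipients were irradiated and also received donor bone marrow. RNA was selected by poly(A) tail and sequenced with the strand retained, and values are normalized counts, that is, reads on a gene divided by 1 size factor per library. Nothing in the labels says whether an animal number stands for a donor or a recipient. In fits with the number as a block, p-values measure how far the differences within a number vary from number to number. Libraries with the same number are called here the libraries of 1 animal, and values are listed in the order of animals 1 to 4, or 2, 3, 5 and 6 for WT.

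T cells pass through a thymic stage at which both coreceptors are present, and then keep either CD4, under the transcription factor ThPOK (gene *Zbtb7b*), or CD8, under RUNX3. CD4+ cells give rise to helper, follicular helper and regulatory cells, while CD8+ cells typically become cytotoxic cells that kill through perforin and granzymes. Mature DP cells in the periphery are few in healthy mice, and the comparison with CD4+ cells asks which genes of each side such cells carry. In bulk RNA, fewer cells of a type and less RNA per cell cannot be told apart.

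The 8 libraries held 39805175 to 46966318 reads on genes. The DP library of animal 3 stood apart, with reads on 11783 genes against 13203 to 14198 in the other 7 and a total normalized count of 51485884 against 42943119 to 46067244. The CD4+ library of animal 1 held more CD8 coreceptor RNA than the other CD4+ libraries, equal to 6.68% of the *Cd8a* level and 9.96% of the *Cd8b1* level of the DP library of the same animal. The count of each gene list below is therefore also given with animals 1, 2, 3 and 4 left out, in that order. Summed over 19 neutrophil and erythroid markers, normalized counts were 6445 and 10249 in the CD4+ and DP libraries of animal 3, against 74.6 to 1792 in the other 6. *Dnmt3a* itself, which encodes the deleted de novo DNA methyltransferase, had 1658, 1628, 1639.6 and 1385 normalized counts in KO CD4+ libraries and 1571, 1021, 650.4 and 1332 in DP libraries, against 4689.98 to 5171 in WT CD4+ libraries. All 8 KO libraries lay below every WT CD4+ library, and the DP and CD4+ groups overlapped (-0.53 on the log2 scale, SE 0.22, adjusted p = 0.2).

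Of the 12175 genes, 860 (7.06%) passed an adjusted p of 0.05 in a limma fit on log2(normalized count + 1) with the animal as a block. Among them 323 (2.65%) were higher in DP cells and 537 (4.41%) were lower. The median change was 2.01-fold among the higher and 2.17-fold among the lower genes, and 165 and 298 of them differed by at least 1 on the log2 scale. All 860 went the same way in each of the 4 animals, which held for 39% of all genes tested. The paired fit called genes on these same within-animal differences, so a shared direction is nearly built into the call. The groups did not overlap for 175 of the 323 and 364 of the 537, where 4.44% of all genes tested lay wholly above and 6.72% wholly below. Without animal 3 the same fit called 1746 genes (14.3%), among them all 860. Without animal 1 it called 453 (3.73%), and without animal 2 or animal 4 it called 186. A call was kept with each animal left out in turn by 51 of the higher and 90 of the lower genes. Fits without the animal as a block called 237 genes, and list counts without the block stand beside those with it. At an unadjusted p under 0.05, 3032 of the 12175 genes passed in either direction, which is the background for the unadjusted list counts below.

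**Figure D1:**
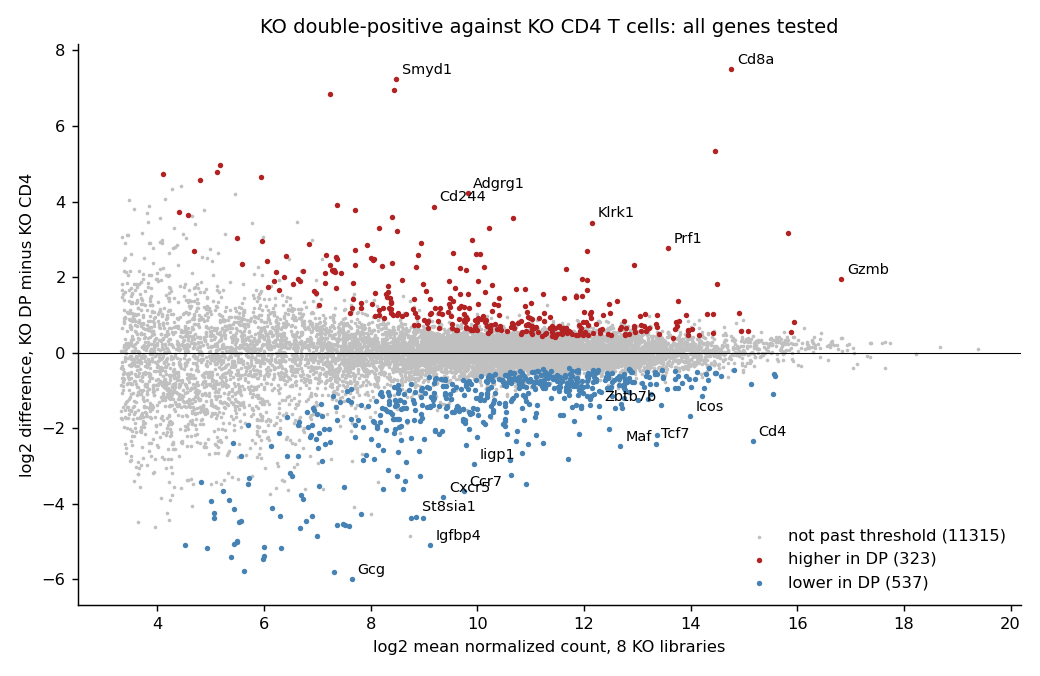
Each point is 1 of the 12175 genes tested, with the log2 of its mean normalized count over 8 KO libraries on the horizontal axis and the fitted log2 difference, KO DP minus KO CD4, on the vertical axis. Red points (323) passed the threshold as higher and blue points (537) as lower in DP cells, and grey points did not pass.

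The coreceptor genes were what the cells were sorted on, and their values describe the gates. *Cd8a* had 3771, 115, 78.3 and 227 normalized counts in the CD4+ libraries of animals 1 to 4 and 56492, 41594, 68516 and 52025 in DP libraries. *Cd8b1*, the second chain of the CD8 heterodimer, had 4515, 549.9, 621 and 788 and 45335, 43969, 48814 and 34203, respectively. *Cd4* had 54510.5, 44804, 74386 and 72645 in CD4+ libraries, 15351, 8758, 12911 and 11473 in DP libraries and 302, 336, 349 and 458 in KO CD8+ libraries. The 3 genes separated DP from CD4+ libraries with no overlap. DP and KO CD8+ libraries overlapped for *Cd8a* (45783 to 68740.3 in CD8+) and *Cd8b1* (35472 to 46606), and the *Cd4* level of DP cells lay between those of the other populations.

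Regulators of the CD4 side were lower in DP cells. *Zbtb7b*, which encodes ThPOK, the factor that commits cells to the CD4 lineage, had 5893, 6660.3, 9788 and 6558 normalized counts in CD4+ and 2457, 1848, 3840.3 and 2808 in DP libraries, a difference of -1.42 on the log2 scale (SE 0.13, adjusted p = 0.0029). *Tcf7*, which encodes TCF1, a factor of naive, stem-like and follicular helper cells, had 16548, 10798, 16373 and 25537 and 4836, 1336, 3039.7 and 4722 (-2.41, SE 0.19, adjusted p = 0.0025). Every DP library lay below every CD4+ library for both genes, and both calls held with each animal left out. *Gata3*, *Satb1* and *Runx1* were lower by smaller amounts (-0.83, -0.92 and -0.82, adjusted p = 0.0092, 0.03 and 0.039). None of these 3 calls held without animal 2. *Runx3*, the CD8 lineage factor that silences *Cd4*, had 7835, 7590.1, 6679 and 6984 in CD4+ and 8724, 8669.8, 4142 and 7922 in DP libraries and did not pass (-0.04, SE 0.17, adjusted p = 0.89). Its lowest value was in the DP library of animal 3, and without that animal the difference was 0.18 (adjusted p = 0.14). *Tox*, which is needed for CD4 lineage development and marks exhausted CD8+ cells, had 4657, 2429, 5538 and 5124 and 11084, 7889, 5419 and 5096 (0.73, SE 0.30, adjusted p = 0.19), and passed without animal 3 (0.98, adjusted p = 0.033). Of 19 coreceptor and lineage genes tested, 2 were higher, both of them CD8 chains, and 6 were lower. Leaving out 1 animal gave 2, 2, 3 and 2 higher and 4, 3, 8 and 4 lower, and the fit without the block 2 and 4. The median difference of the list was -0.35, beside -0.01 over all genes.

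Several genes that mark the thymic DP stage were at or near 0. *Rag1*, which recombines antigen receptor genes, had no reads in 7 of the 8 libraries and 38.5 normalized counts in the DP library of animal 3. *Arpp21* was likewise listed at 0 outside that library, where it had 13.7. *Ptcra*, the invariant pre-T cell receptor chain, reached at most 2.86, and *Dntt* had 11.5, 5.89, 5.73 and 9.88 in CD4+ libraries and 0 in DP libraries. Of 12 genes of this stage in the table, 7 had a mean of 10 or more and were tested, and 3 were lower in DP cells. These were *Ccr9* (-0.94), *Tcf12* (-0.65) and *Bcl2l1* (-0.92), with adjusted p = 0.045, 0.017 and 0.019. With 1 animal left out 2, 0, 3 and 1 were lower, and 0 without the block by limma, where the count at an unadjusted p under 0.05 with the block was 3. The median over those tested was -0.65.

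**Figure D2:**
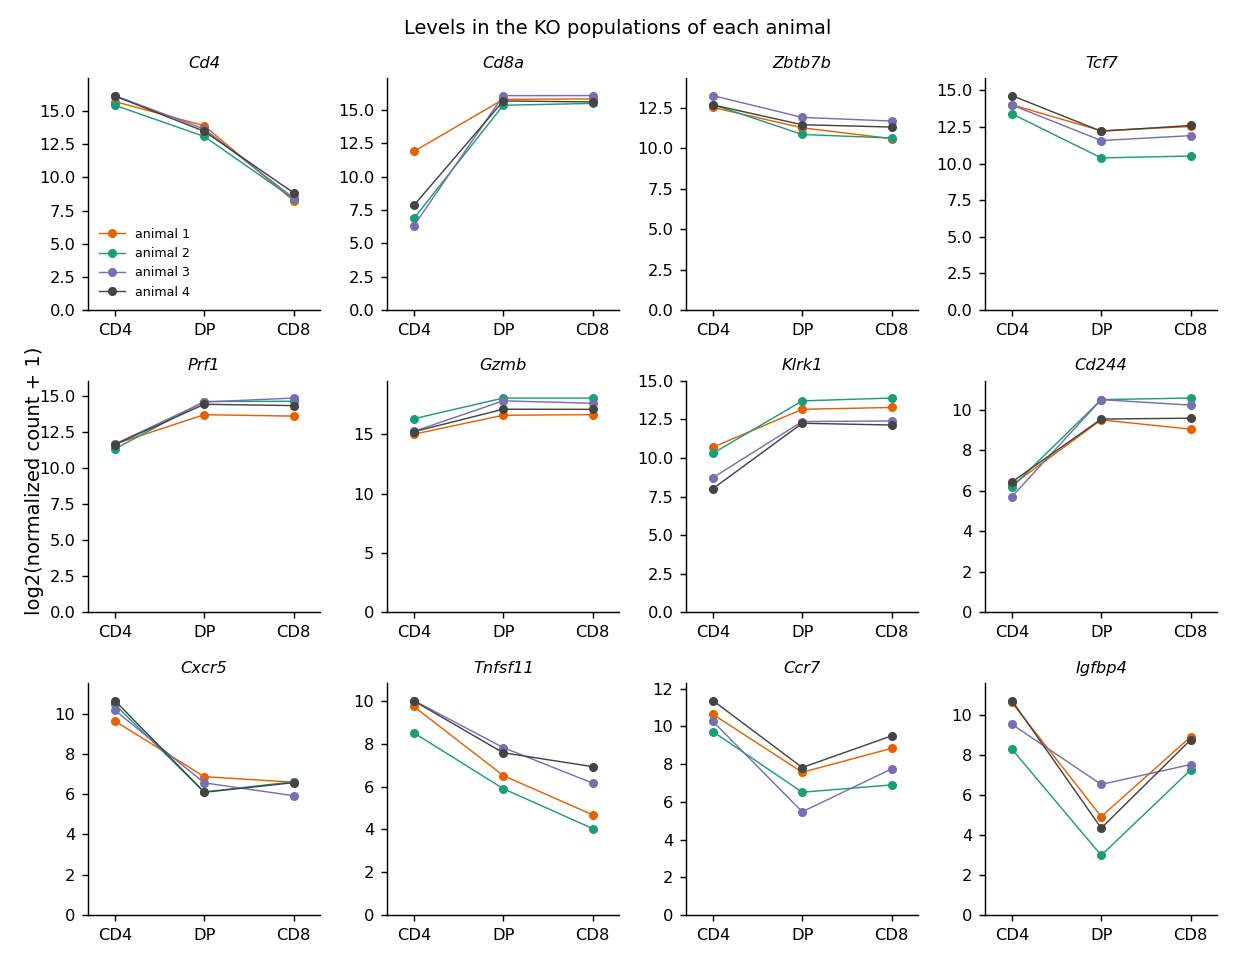
Levels of 12 genes as log2(normalized count + 1) in KO CD4, DP and CD8 libraries, with points of 1 animal joined by a line. *Prf1*, *Gzmb*, *Klrk1* and *Cd244* were higher in DP than in CD4 libraries in every animal, and *Zbtb7b*, *Tcf7*, *Cxcr5*, *Tnfsf11*, *Ccr7* and *Igfbp4* were lower.

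Genes of the cytotoxic granule were higher in DP cells. *Prf1*, which encodes the pore former perforin, had 3287, 2595, 3269.6 and 3200.1 normalized counts in the CD4+ libraries and 13443, 25347, 24707 and 22177 in the DP libraries, 6.76-fold higher (2.76 on the log2 scale, SE 0.19, adjusted p = 0.0022). *Gzmb*, a granzyme that triggers the death of target cells, had 32778, 80806, 38648 and 37996 and 99141, 270285, 229806 and 140935, 3.86-fold higher (1.95, SE 0.18, adjusted p = 0.0033). *Gzmk*, a granzyme of memory-like CD8+ cells, had 1441, 3577, 1096 and 1172 and 4545, 12308, 5728 and 4296 (1.92, SE 0.14, adjusted p = 0.0022). For all 3 genes each DP library lay above each CD4+ library, and *Gzmb* and *Gzmk* were highest in animal 2 in both populations. *Crtam*, an adhesion receptor of activated cytotoxic cells, had 1911, 329.9, 1161 and 1880.1 and 8078, 4750.3, 7147 and 8794 (2.69, SE 0.28, adjusted p = 0.0041). These 4 calls held with each animal left out. *Gzma* (3.17), *Nkg7* (1.05), *Ctsw* (1.00) and *Fasl* (0.85), which encodes the ligand that kills through Fas, were also higher, with adjusted p between 0.0088 and 0.021, and lost the call without animal 4. Only 5 of the 8 higher calls were kept without animal 2, among them those of *Prf1*, *Gzmb*, *Gzmk* and *Crtam*. In all, 8 of 21 cytotoxic genes tested were higher and the other 13 did not pass, with 12 of the 21 higher in all 4 animals and a median difference of 0.45. With 1 animal left out the higher count was 7, 5, 10 and 4, and without the block it was 6, while 1 gene was lower without animal 3.

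The sequence upstream of these genes can be read for the core hexamer of RUNX factors, which bind cytotoxic genes in CD8+ cells. The hexamer TGTGGT was searched on both strands, with ACCACA as its other strand, in the 250 bases before each RefSeq transcript start of GRCm38.p6. Of 32851 windows over all genes, 14.0% held it at least once. Of 11680 windows of the genes tested here the share was 11.3%, against 16.5% of 322 windows of genes higher in DP cells and 13.3% of 549 windows of genes lower in DP cells. Over the cytotoxic and natural killer (NK) lists, whose members are in part neighbouring duplicates with shared sequence, 27 of 52 windows (51.9%) held it, and 11 of 18 windows (61.1%) of the members called higher. Those 18 windows are also counted among the 322, so they raise the share of 16.5% and the shares are not separate. These shares describe the letters in a window and not binding, and were not tested. The windows of 3 granule genes that overlapped no annotated gene are shown, with the hexamer in capitals. *Gzmb* (chr14:56262335-56262584, minus strand) holds it 93 and 34 bases before the start, *Nkg7* (chr7:43436888-43437137, plus strand) holds it 83 bases before the start, and *Gzmk* (chr13:113180966-113181215, minus strand), which was as clearly higher, has none.
Gzmb: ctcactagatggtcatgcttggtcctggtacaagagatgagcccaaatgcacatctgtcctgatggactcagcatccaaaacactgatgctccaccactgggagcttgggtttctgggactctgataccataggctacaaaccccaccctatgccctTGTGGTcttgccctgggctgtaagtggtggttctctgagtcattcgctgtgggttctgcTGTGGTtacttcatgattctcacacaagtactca
Nkg7: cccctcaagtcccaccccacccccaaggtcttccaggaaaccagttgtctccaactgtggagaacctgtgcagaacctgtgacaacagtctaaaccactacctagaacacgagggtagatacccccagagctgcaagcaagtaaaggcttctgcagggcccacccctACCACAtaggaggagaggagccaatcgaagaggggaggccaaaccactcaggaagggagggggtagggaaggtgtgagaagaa
Gzmk: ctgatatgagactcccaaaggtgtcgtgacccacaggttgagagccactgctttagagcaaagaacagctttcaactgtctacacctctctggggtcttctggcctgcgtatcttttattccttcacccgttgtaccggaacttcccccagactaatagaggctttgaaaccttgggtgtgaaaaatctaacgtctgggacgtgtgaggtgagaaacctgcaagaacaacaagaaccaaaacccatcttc

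NK receptors and their adaptors, which many cytotoxic CD8+ cells also carry, were the list with the highest median difference, 1.62 on the log2 scale. *Klrk1*, which encodes the activating receptor NKG2D, had 1662, 1267, 424 and 258 normalized counts in CD4+ and 9161, 13365, 5285 and 4892 in DP libraries, 10.8-fold higher (SE 0.26, adjusted p = 0.0024). *Klrc1*, the inhibitory NKG2A chain, had 3618, 3459, 2182 and 1535 and 12952, 17295, 11875 and 10062, 5.02-fold higher (SE 0.15, adjusted p = 0.0022). *Cd244*, the receptor 2B4, had 76.5, 71.7, 51.6 and 85.7 and 725, 1451, 1449.7 and 746, 14.5-fold higher (SE 0.32, adjusted p = 0.0025). Their DP and CD4+ groups were fully separate, and these 3 calls held with each animal left out. In the CD4+ group, *Klrk1* and *Klrc1* were higher in animals 1 and 2 than in animals 3 and 4, while *Cd244* was not. Of 19 members tested, 12 were higher and 1, *Klrb1f* (-1.40, adjusted p = 0.045), was lower. The other higher members included *Klrd1* (1.96), the partner chain of NKG2A, the Ly49 genes *Klra3* (2.30) and *Klra7* (4.66), the signalling adaptor *Fcer1g* (1.62), *Cd160* (1.65), *Slamf7* (0.81) and *Cd226* (1.02). *Klra7* had no reads in the CD4+ libraries of animals 3 and 4 and 24.9 to 281 normalized counts in DP libraries. Higher members numbered 12, 7, 13 and 6 with 1 animal left out and 6 without the block. Among these fits, the call for *Klrb1f* was kept only in that without animal 3. Near-identical copies within the Klra, Klrc and Klrb1 families, the granzymes, *Ccl3* and *Ccl4*, and the Ifitm genes may share reads, so the split between family members is uncertain.

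Of 14 follicular helper genes tested, 11 were lower in DP cells and the other 3 did not pass, with a median difference of -1.58. *Cxcr5*, the receptor that guides helper cells into B cell follicles, had 791, 1401, 1144 and 1600.1 normalized counts in CD4+ and 115, 67.7, 93.1 and 67.1 in DP libraries, 14.1-fold lower (SE 0.31, adjusted p = 0.0025). *St8sia1*, a sialyltransferase of ganglioside synthesis, had 834, 1161, 746 and 789.6 and 43.2, 27.5, 44.7 and 58.5, 20.2-fold lower (SE 0.30, adjusted p = 0.0022). *Maf*, which drives *Il21* expression, had 8513, 11653, 14096 and 9891 and 2924, 1932, 1885 and 1348, 5.57-fold lower (SE 0.23, adjusted p = 0.0029). The groups did not overlap for these 3 genes. *Icos*, the costimulatory receptor of follicular helper cells, differed by -1.69 and *Slamf6* by -1.47 (adjusted p = 0.005 and 0.0033). The repressor *Bcl6*, which defines the follicular helper lineage, had 343, 509, 788 and 862 in CD4+ and 127, 69.6, 221 and 385 in DP libraries (-1.82, SE 0.29, adjusted p = 0.016), with an overlap of the groups. Of the 11 calls, 6 held with each animal left out, which *Bcl6* did not. The lower count was 10, 8, 12 and 6 with 1 animal left out and 6 without the block, and 1 gene was higher without animal 3.

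Cytokines and ligands of helper cells were lower as well. *Tnfsf11*, which encodes RANKL, a ligand for receptors on dendritic cells and osteoclast precursors, had 858, 364, 1042 and 1028 in CD4+ and 90.6, 58.9, 226 and 191 in DP libraries (-2.62, SE 0.22, adjusted p = 0.0025). *Il21*, a cytokine that acts on B and CD8+ T cells, had 1329, 1231, 5460.1 and 3042 and 419, 115, 1333 and 645 (-2.34, SE 0.27, adjusted p = 0.006). *Tnfsf8*, the CD30 ligand, had 3204, 1907, 4699 and 6071 and 1242, 175, 884 and 1163 (-2.40, SE 0.29, adjusted p = 0.0074). These 3 calls held with each animal left out, and the groups overlapped for *Il21*, which was highest in animal 3 in both populations. *Csf1* and *Tnf* were lower too (-0.93 and -1.42, adjusted p = 0.011 and 0.026), and both lost the call without animal 2. *Ifng*, the type 1 effector cytokine that CD4+ and CD8+ cells both make, had 1835, 4761, 3438 and 3554 and 2502, 3239.8, 9172 and 5439 with no call (0.48, SE 0.28, adjusted p = 0.31), and the T cell growth factor *Il2* was low in both (13.7 to 129.6 and 0 to 26.5). Of 13 members tested, 5 were lower and the other 8 did not pass. With 1 animal left out 4, 3, 8 and 4 were lower, and without the block 1. *Cd40lg* was not analysed here.

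Of 18 regulatory T cell genes tested, 10 were lower and 1 was higher in DP cells, with a median difference of -2.11. *Tnfrsf4*, which encodes the costimulatory receptor OX40, had 3568, 2995, 9691 and 7418 normalized counts in CD4+ and 785, 395, 4134 and 1577 in DP libraries (-2.14, SE 0.24, adjusted p = 0.0058). *Izumo1r*, the folate receptor 4 of regulatory and anergic cells, had 1799, 786, 5049 and 5562 and 426, 103, 1214 and 892 (-2.42, SE 0.18, adjusted p = 0.0022). The groups overlapped for both genes, levels in animals 3 and 4 exceeded those in animals 1 and 2 in both populations, and both calls held with each animal left out. *Ebi3*, a subunit of interleukin 27 and 35, had 153, 119, 665 and 522 in CD4+ and 11.9, 0, 43.4 and 32.6 in DP libraries (-4.59, SE 0.60, adjusted p = 0.009), and *Lrrc32*, which presents latent TGF-beta, had 168, 32.4, 172 and 103 and 27.0, 0, 0 and 0 (-5.45, SE 0.93, adjusted p = 0.02). The factor *Ikzf2* (-1.71), the inhibitory receptor *Ctla4* (-0.91), *Tnfrsf18* (-0.73) and the chemokine receptor *Ccr8* (-2.15) were also lower, with adjusted p between 0.01 and 0.032. The higher gene was *Tnfrsf9*, which encodes the costimulatory receptor 4-1BB of activated CD8+ cells, at 2595, 3551, 4105 and 3639 in CD4+ and 4811, 7351, 9433 and 6732 in DP libraries (1.01, SE 0.10, adjusted p = 0.0037). The lower count depended on the pairing, with 1 of the list lower without the block, and was 9, 3, 12 and 2 with 1 animal left out. *Tnfrsf9* was the higher gene in each of these fits. *Foxp3* was not analysed here.

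Costimulatory receptors and ligands shared this direction, with 13 of 23 lower and 3 higher, *Tnfrsf9*, *Cd27* and *Cd226*. *Cd28*, the main costimulatory receptor of naive T cells, had 11807, 13457, 15149 and 13135 normalized counts in CD4+ and 7972, 8124, 7323 and 6528 in DP libraries (-0.84, SE 0.12, adjusted p = 0.01). *Cd5*, a dampener of antigen receptor signals, had 15665, 12637, 24323 and 17629 and 8813, 6896, 11363 and 9254 (-0.93, SE 0.10, adjusted p = 0.0041). The groups were separate for both genes, and the call for *Cd5* held with each animal left out, while that for *Cd28* was lost without animal 2 or animal 4. *Trat1*, an adaptor of the T cell receptor complex, had 1133, 887, 619.7 and 620.5 in CD4+ and 61.5, 4.90, 68.3 and 80.5 in DP libraries (-4.38, SE 0.68, adjusted p = 0.014). The costimulatory list held 8, 6, 15 and 4 lower and 2, 2, 3 and 2 higher genes with 1 animal left out, and 4 and 1 without the block. Proximal signalling genes of the T cell receptor were mostly uncalled, with 2 higher and 3 lower of 34. The higher pair were *Ubash3b* (1.44, adjusted p = 0.011), a phosphatase that restrains the receptor, and the adaptor *Sh2d2a* (0.57, adjusted p = 0.019). The proximal signalling counts were 1, 1, 3 and 1 higher and 1, 0, 8 and 0 lower with 1 animal left out, and 2 and 0 without the block.

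Among 30 transcription factors of effector lineages, 4 were higher and 6 lower. *Eomes*, a T-box factor of cytotoxic and memory CD8+ cells, had 499, 785, 98.4 and 194 normalized counts in CD4+ and 1913, 1448, 1012 and 1136 in DP libraries, 4.52-fold higher (SE 0.36, adjusted p = 0.018), with separate groups. *Irf8* had 2141, 2553, 3965 and 2966 and 4584, 6617, 7360.3 and 5550.4 (1.07, SE 0.12, adjusted p = 0.0049), and its call held with each animal left out, while that for *Eomes* was lost without animal 4. *Zbtb32* (1.67) and the Ikaros family factor *Ikzf3* (0.84) were higher too, with adjusted p = 0.009 and 0.028. Apart from *Maf* and *Gata3*, the lower factors included *Ahr* (-1.21), *Id3* (-1.97) and *Irf4* (-0.60), with adjusted p = 0.019, 0.031 and 0.03. *Tbx21*, the T-box factor of type 1 responses, was higher in all 4 animals, at 4919, 7717, 8625 and 6310.2 in CD4+ and 5771, 10746, 10906 and 8709.6 in DP libraries, without a call (0.38, SE 0.10, adjusted p = 0.061). It passed without animal 3 (adjusted p = 0.013). With 1 animal left out, 3, 3, 6 and 1 factors were higher and 3, 1, 7 and 1 lower, against 2 and 3 without the block. Of the lower factors only *Maf* passed without animal 2 and without animal 4.

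Stem-like and memory genes were lower in DP cells in 10 of 17 cases, with 1 higher, and 16 of the 17 were lower in all 4 animals (median -1.35). *Ccr7*, the receptor for entry into lymph nodes, had 1604, 846, 1236 and 2661 normalized counts in CD4+ and 189, 90.2, 43.4 and 225 in DP libraries, 12.7-fold lower (SE 0.30, adjusted p = 0.0025). *Il7r*, the survival receptor for interleukin 7, had 22548, 9793, 13825 and 21746 and 8035, 2208, 1998 and 4280.03, 4.57-fold lower (SE 0.20, adjusted p = 0.0028). *Il6ra*, an interleukin 6 receptor chain, had 962, 475, 832 and 1588 and 79.8, 13.7, 52.1 and 49.9, 20.8-fold lower (SE 0.31, adjusted p = 0.0022). *Igfbp4*, a secreted binder of insulin-like growth factors found in naive T cells, had 1564, 310.3, 735 and 1674 and 29.1, 6.87, 90.6 and 19.2 (-5.10, SE 0.52, adjusted p = 0.0041). The 4 genes were separate between the groups and kept their calls with each animal left out. The higher gene was the costimulatory receptor *Cd27* (0.70, adjusted p = 0.029). Lower members of the list numbered 8, 6, 13 and 7 with 1 animal left out and 6 without the block. In KO CD8+ libraries *Igfbp4* had 474, 150.3, 182 and 429 and *Ccr7* had 457, 118, 214 and 725, so that in each of the 4 animals DP cells held less of both than either single-positive population. The differences from KO CD8+ cells were -3.41 and -1.40 with no call over 4 animals (adjusted p = 0.41 and 0.41), and without animal 3 adjusted p = 7.1e-09 and 0.002. With so few pairs limma leans on variance shared across genes. The values without animal 3 therefore say little about the spread of either gene between animals.

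Inhibitory receptors and exhaustion factors split, with 6 of 21 higher and 5 lower in DP cells (median -0.13). *Havcr2*, which encodes TIM-3, had 2129, 3556, 5148 and 3637 normalized counts in CD4+ and 6862, 9394, 9671 and 10164 in DP libraries (1.37, SE 0.14, adjusted p = 0.0038). The orphan nuclear receptor *Nr4a2* had 136, 86.4, 568 and 499 and 627, 677, 2189 and 1768 (2.23, SE 0.22, adjusted p = 0.0034), while its relative *Nr4a1* went the other way, at 914, 1437, 2171 and 1902 and 602, 658, 1121 and 1012 (-0.90, SE 0.13, adjusted p = 0.012). *Lag3* (1.37) and the ectoenzyme *Cd38* (1.30) were higher (adjusted p = 0.017 and 0.0051). *Pdcd1*, which encodes PD-1, was higher in all 4 animals without a call (0.76, SE 0.18, adjusted p = 0.054) and passed without animal 3 (0.88, adjusted p = 0.0084), and *Tigit* differed by -0.41 (adjusted p = 0.17). *Btla* and *Ctla4* were lower (-1.42 and -0.91, adjusted p = 0.013 and 0.032). Calls for *Havcr2*, *Cd244*, *Nr4a2* and *Cd38* held with each animal left out, and the list held 5, 5, 9 and 5 higher and 4, 0, 6 and 0 lower genes with 1 animal left out, and 3 and 1 without the block.

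Chemokine ligands were higher where called, in 4 of 11. *Ccl5*, a chemokine that effector CD8+ cells store, had 17752, 7410.4, 8557 and 7538 normalized counts in CD4+ and 50018, 34367, 42464 and 17415 in DP libraries (1.81, SE 0.20, adjusted p = 0.005). *Ccl3* (1.49), *Ccl4* (1.51) and *Xcl1* (2.60), the ligand of cross-presenting dendritic cells, were also higher, with adjusted p = 0.0096, 0.011 and 0.039, and their groups overlapped. Levels of *Xcl1* in DP libraries ranged from 22.6 to 6256, with the highest in animal 3. Chemokine receptors were lower where called, in 7 of 20, among them *Ccr4*, a receptor of helper type 2 and regulatory cells, at 316, 413, 307 and 327 in CD4+ and 5.39, 2.94, 77.0 and 20.1 in DP libraries (-4.57, SE 0.74, adjusted p = 0.016), and *Gpr183*, which positions cells by oxysterols (-1.33, SE 0.13, adjusted p = 0.0034). *Cx3cr1*, a receptor of terminal effector cells, was separate between the groups (787 to 2171 in CD4+ and 2480.4 to 4405 in DP) and did not pass (1.27, SE 0.34, adjusted p = 0.074). With 1 animal left out, 3, 1, 4 and 3 ligands were higher and 5, 3, 8 and 5 receptors lower, and without the block 1 and 4. Among these fits, only that without animal 3 had higher receptors, 3 of them with *Cx3cr1* included. *Cxcr3* was not analysed here.

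Integrins and selectin ligand genes went both ways (6 higher and 7 lower of 28). *Itgax*, which encodes CD11c and is found on activated CD8+ cells as well as dendritic cells, had 1964, 1629.96, 606 and 637 normalized counts in CD4+ and 7185, 7455, 2857 and 3649 in DP libraries, 4.61-fold higher (SE 0.13, adjusted p = 0.0022). *Itgb1*, the common beta 1 chain, had 79338, 56341, 71403 and 48708 and 44911, 32233, 27690.00 and 19321 (-1.08, SE 0.14, adjusted p = 0.0092). The collagen-binding partners of beta 1 diverged, *Itga1* at 1.11 and *Itga2* at -1.39 (adjusted p = 0.012 and 0.015). The integrin and selectin ligand list held 4, 2, 7 and 2 higher and 4, 2, 8 and 2 lower genes with 1 animal left out, and 4 and 1 without the block. Cytokine receptors were lower in 10 of 28, including *Il1r1* at 483, 408, 710.4 and 949 in CD4+ and 93.9, 13.7, 59.6 and 180.3 in DP libraries (-3.27, SE 0.43, adjusted p = 0.0088), *Il12rb2* (-1.24), *Il4ra* (-0.67) and *Tgfbr2* (-0.67), with adjusted p = 0.049, 0.024 and 0.021 for the last 3. Of these receptor calls, 3 held with each animal left out, for *Il1r1*, *Il6ra* and *Il7r*, and the list held 7, 3, 12 and 3 lower genes with 1 animal left out and 4 without the block.

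**Figure D3:**
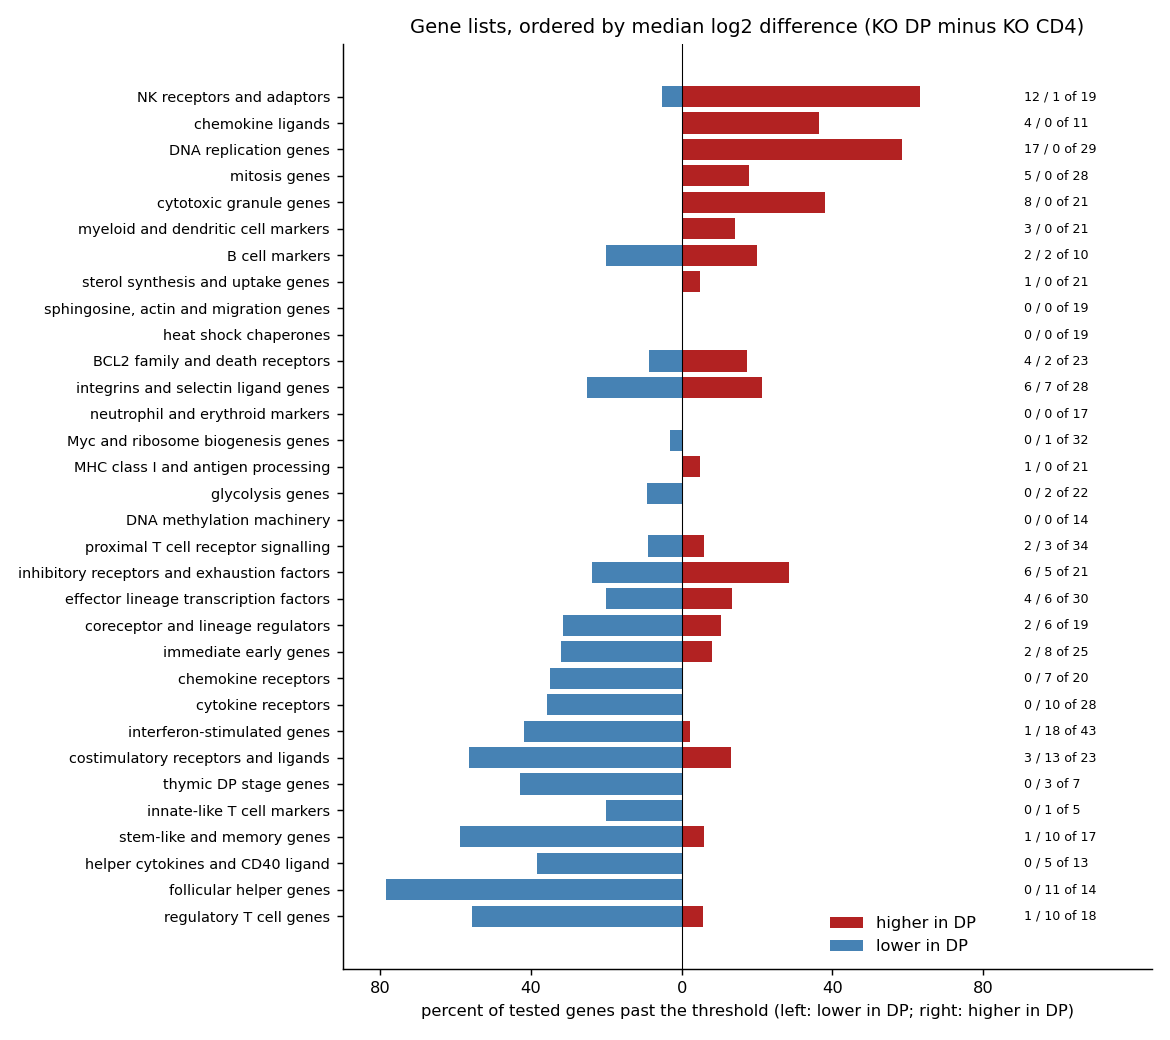
Gene lists ordered by median log2 difference, KO DP minus KO CD4. Bars give the percent of tested genes past the threshold, to the right for higher and to the left for lower in DP cells, and regulatory T cell genes (1 higher and 10 lower of 18) and NK receptors (12 and 1 of 19) stand at opposite ends.

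Genes of DNA replication were higher in DP cells by small amounts. Of 29 tested, 17 passed and 28 were higher in all 4 animals, with a median of 0.56 on the log2 scale. *Mcm5*, a subunit of the replicative helicase, had 8219.6, 18141, 15596 and 10001 normalized counts in CD4+ and 11711, 27712, 24739.7 and 16584 in DP libraries (0.63, SE 0.09, adjusted p = 0.013). *Lig1*, the ligase that joins Okazaki fragments, had 3491, 9917, 8231 and 4287 and 5332, 17502, 11096 and 9108 (0.74, SE 0.13, adjusted p = 0.02). The groups overlapped for both genes, and in each population animal 2 was highest and animal 1 lowest. Of 28 mitosis genes, 5 were higher and the other 23 did not pass (median 0.48), among them *Ccnb2* (0.67) and *Birc5* (0.75) with adjusted p = 0.038 and 0.024. *Mki67* and *Top2a* did not pass (0.09 and 0.24, adjusted p = 0.83 and 0.33). At an unadjusted p under 0.05, 28 replication and 22 mitosis genes were higher, where 3032 of the 12175 genes tested passed in either direction. None of the calls in these lists was kept by limma without the block, without animal 2 or without animal 4. Without animal 3 there were 26 replication and 17 mitosis genes higher, and without animal 1 there were 7 and 2.

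Interferon-stimulated genes were lower in DP cells in 18 of 43 cases and higher in 1, with a median of -0.57. *Iigp1*, a GTPase that attacks the vacuoles of parasites, had 1052, 2009.96, 2247 and 1665 normalized counts in CD4+ and 193, 174, 331 and 198 in DP libraries, 7.72-fold lower (SE 0.20, adjusted p = 0.0022). *Oasl2* had 349, 845, 429 and 270.2 and 60.4, 74.5, 58.3 and 50.8, 7.01-fold lower (SE 0.27, adjusted p = 0.0033). *Ifit1*, which binds viral RNA, had 1032, 1665, 1077 and 742 and 544, 372, 374 and 231 (-1.57, SE 0.21, adjusted p = 0.0095). The groups were separate for all 3. *Isg15* was lower in animals 1, 2 and 4 and higher in animal 3 (795, 1565, 1341 and 1072 in CD4+ against 555, 646, 2403 and 740.2 in DP libraries), without a call (adjusted p = 0.47), and passed without animal 3 (-0.78, adjusted p = 0.016). The higher gene was *Ly6c2*, a surface marker of effector and memory CD8+ cells that interferon also raises (1.00, SE 0.10, adjusted p = 0.0041). Of the list, 13, 4, 24 and 4 genes were lower with 1 animal left out and 7 without the block.

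Immediate early genes, which antigen receptor signals induce within minutes, were lower in 8 of 25 and higher in 2, *Nr4a2* and *Ier3*. *Egr1* had 1692, 1539.6, 3506 and 4051 normalized counts in CD4+ and 815, 519.9, 1084 and 2237 in DP libraries (-1.29, SE 0.17, adjusted p = 0.0084), and *Egr3* had 769, 615, 2082 and 1757 and 356, 75.5, 577 and 776 (-1.79, SE 0.31, adjusted p = 0.021). *Nfkbia*, the inhibitor that NF-kappaB induces, differed by -0.83 (SE 0.09, adjusted p = 0.0052). Levels of *Egr1* and *Egr3* were higher in animals 3 and 4 than in animals 1 and 2 in CD4+ libraries, and the groups overlapped for both. Lower counts were 6, 2, 13 and 2 with 1 animal left out, and 0 by limma without the block, where 14 were lower with the block at an unadjusted p under 0.05.

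None of 14 DNA methylation genes passed by limma over 4 animals, with 2 higher and 4 lower at an unadjusted p under 0.05. Counts for this list were 0 by edgeR, 1 higher and 2 lower by DESeq2, and 3 higher and 2 lower by limma without animal 3. The maintenance methyltransferase *Dnmt1* was at 0.23, the second de novo enzyme *Dnmt3b* at 0.14, the demethylase *Tet2* at -0.46 and *Uhrf1*, which recruits DNMT1, at 0.54. None of 19 heat shock chaperones passed by limma (1 at an unadjusted p under 0.05, 0 by edgeR and 0 by DESeq2). None of 19 sphingosine, actin and migration genes passed by limma (5 at an unadjusted p under 0.05, 1 by edgeR and 4 by DESeq2), and 6 did so without animal 3. Glycolysis genes were lower in 2 of 22, sterol genes were higher in 1 of 21, ribosome biogenesis genes were lower in 1 of 32 and MHC class I genes were higher in 1 of 21, beside 7.06% of all genes in either direction, and none of these calls was kept by limma without animal 4 or without the block. In the BCL2 and death receptor list, 4 were higher and 2 lower of 23, with the death-promoting *Bcl2l11* (0.65, adjusted p = 0.045) on the higher side and *Bbc3* (-1.06, adjusted p = 0.01) beside *Bcl2l1* on the lower. This list held 1, 0, 4 and 0 higher and 2, 1, 2 and 0 lower genes with 1 animal left out, and 2 and 0 without the block. No call in it held with each animal left out.

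Markers of other cells that a sort of spleen could hold were followed as well. Of 21 myeloid and dendritic markers tested, 3 were higher in DP cells, *Itgax*, *Itgam* and *Cd68*, and the summed level was 11589 to 14383 in CD4+ and 16426 to 23732 in DP libraries. Of 10 B cell markers tested, 2 were higher, *Cd79b* and *Cd72*, and 2 lower, *Cd22* and *Pou2af1*, with sums of 3610.5 to 6386 and 4022 to 7957. Members of the B cell list differed in level. *Ms4a1* and *Pax5* had at most 4.39 and 1.91 normalized counts in any of the 8 libraries, so other members made up the sums. None of 17 neutrophil and erythroid markers tested passed by limma (1 at an unadjusted p under 0.05, 0 by edgeR and 0 by DESeq2). Of 5 innate-like T cell markers tested, 1 was lower, and their sums were 2126 to 2329 in CD4+ and 784 to 1654 in DP libraries. With 1 animal left out, 2, 1, 3 and 2 myeloid markers were higher. What part other cells had in the genes above was not tested.

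Among the 12 largest rises in DP cells with separate groups were *Smyd1*, *Calcb* and 1 gene model beside the CD8 coreceptors. *Smyd1*, a methyltransferase known from muscle, had 48.8, 7.86, 0 and 0 normalized counts in CD4+ and 838, 665, 532 and 762 in DP libraries (7.24, SE 0.90, adjusted p = 0.0076). It lies on chromosome 6 from 71213940 to 71262281 (GRCm38.p6), 60506 bases from *Cd8b1* and 111145 bases from *Cd8a*. As for *Cd8a*, the highest CD4+ value was in animal 1, and the call held with each animal left out. *Calcb*, which encodes a calcitonin gene-related peptide, had no reads in any CD4+ library and 61.5, 26.5, 1022 and 98.8 in DP libraries, which is at least 91.7-fold higher against a floor of 3 reads per library, and at least 18.9-fold without animal 3. *Adgrg1*, an adhesion receptor of cytotoxic cells, had 114, 25.5, 133 and 159 in CD4+ and 1575, 1346, 1782 and 2105 in DP libraries (4.22, SE 0.35, adjusted p = 0.0025), and its relative *Adgrg5* differed by 3.56 (SE 0.30, adjusted p = 0.0025). *Slc16a11*, *Pald1* and *Filip1* were higher by 3.90, 3.78 and 3.58 on the log2 scale. Of the 12 largest rises, 9 kept the call with each animal left out.

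Among the 12 largest falls with separate groups, *Gcg*, which encodes proglucagon, had 309, 152, 880.4 and 219 normalized counts in CD4+ and 27.0, 0, 18.6 and 0 in DP libraries (-6.00, SE 0.75, adjusted p = 0.0076). *Wisp1* had 271, 119, 432 and 392 and 10.8, 0, 0 and 46.0 (-5.81, SE 0.92, adjusted p = 0.015), and *Nav2* had 217, 464, 328 and 219 and 14.0, 0, 41.0 and 37.4 (-4.55, SE 1.00, adjusted p = 0.042). *Ces2c* (-5.16), *Amigo2* (-5.15) and *Zscan10* (-4.85) fell by similar amounts, with adjusted p = 0.013, 0.016 and 0.023. DP levels of all 6 genes were at or near 0 in at least 1 library, so their log2 differences depend on the pseudocount. Of the 12 largest falls, only *Gcg* and *Igfbp4* kept the call with each animal left out.

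DP cells did not hold a fixed share of the CD4+ level across CD4-side genes. The mean *Cd4* level in DP libraries was 19.7% of that in CD4+ libraries (28.2%, 19.5%, 17.4% and 15.8% in animals 1 to 4). For *Cxcr5* it was 6.96%, for *St8sia1* 4.92%, for *Il6ra* 5.07% and for *Trat1* 6.60%. These 4 genes lay below the share of *Cd4* in every animal. For *Zbtb7b* it was 37.9%, for *Slamf6* 35.9% and for *Icos* 31.3%, above the share of *Cd4* in every animal, and for *Tcf7* and *Maf* it was 20.1% and 18.3%. KO CD8+ cells were not set beside these shares, which therefore do not show a trait particular to DP cells. Over the 14 follicular helper genes tested, the median difference between DP and KO CD8+ cells was 0.08 on the log2 scale, with 0 called. Without animal 3, 4 of them were higher in DP cells.

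**Figure D4:**
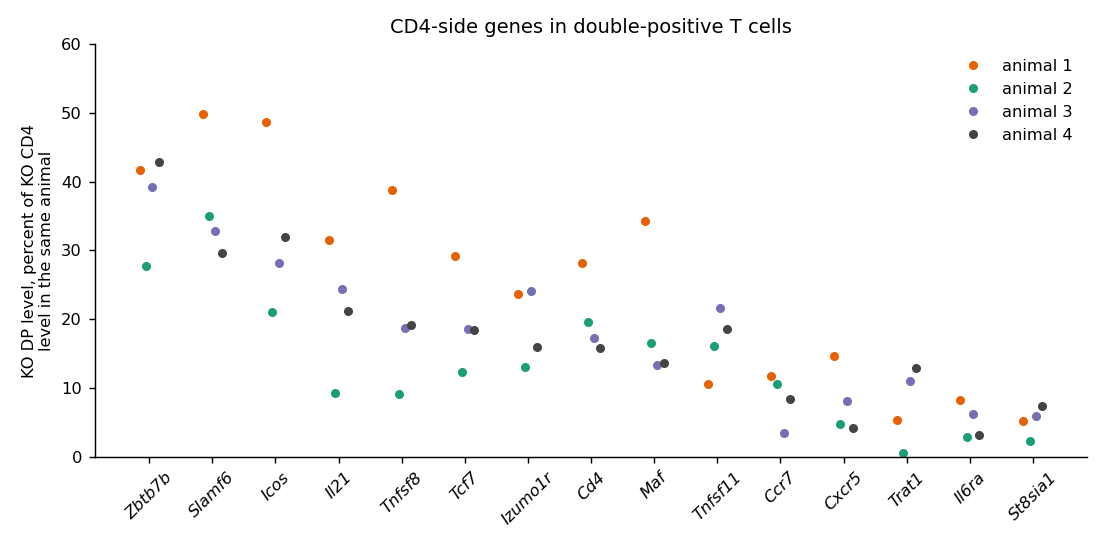
KO DP level as a percent of the KO CD4 level of the same animal, for 15 CD4-side genes ordered by the ratio of group means, with 1 point per animal. *Cd4* lies between 15.8% and 28.2%, while *Cxcr5*, *St8sia1*, *Il6ra* and *Trat1* lie below it and *Zbtb7b*, *Slamf6* and *Icos* above it in each animal.

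The contrast between WT CD8+ and WT CD4+ cells, which shares no library with the KO contrast, gives the size that these genes take between the usual populations. Of 12559 genes tested in WT cells, 6134 (48.8%) passed, 3071 (24.5%) higher and 3063 (24.4%) lower in CD8+ cells. Of the 860 genes called between DP and CD4+ cells in KO animals, 857 were tested in WT cells, 855 of them had the same sign there, and 845 also passed. The other 2, *Arl5a* and *Grina*, did not pass in WT cells. Over all 12003 genes tested in both contrasts, 72.4% had the same sign. The absolute difference of the 857 was smaller in KO for 427 of them, and the median ratio of KO to WT differences was 100.1%. The 857 were selected by their KO differences, and such a selection tends to enlarge those. The ratio therefore cannot show whether the contrasts are equal in size.

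A direct test of KO DP minus KO CD4 against WT CD8 minus WT CD4 called 12 of 12441 genes (0.0965%), 7 higher (0.0563%) and 5 lower (0.0402%). *Cd4* was among them by the gate. Genotype and population (DP or CD8+) change together between these contrasts and cannot be told apart, and a difference can also lie in the CD4+ libraries. *Tnfsf11* fell by 2.62 on the log2 scale between CD4+ and DP cells in KO animals and by 4.78 between CD4+ and CD8+ cells in WT animals, a difference of 2.17 (SE 0.26, adjusted p = 0.029). *Dclk1*, a microtubule-associated kinase, had 263, 289.7, 2578 and 1283 normalized counts in KO CD4+ and 206, 145, 644 and 431 in DP libraries, while WT libraries held 2441 to 3042 for CD4+ and 201 to 273 for CD8+ cells, and the contrasts differed by 2.32 (SE 0.31, adjusted p = 0.031). The KO groups overlapped for *Dclk1* and the WT groups did not. *Dnajc6* (1.97), the polyamine enzyme *Odc1* (0.81), the tetraspanin *Cd82* (0.77) and *Tnfrsf18* (0.72) also fell less in the KO contrast, with adjusted p = 0.042, 0.031, 0.029 and 0.042. On the other side, *Haao* (-1.65), an enzyme of tryptophan breakdown, the ceramide kinase *Cerk* (-1.15), *Baiap3* (-1.08) and the glucosylceramide synthase *Ugcg* (-0.71) rose less, with adjusted p = 0.041, 0.029, 0.049 and 0.042. *Pkp4*, a junction protein of the plakophilin family, differed by -0.15 in KO and 0.82 in WT cells, and the contrasts differed by -0.97 (adjusted p = 0.029). These calls depended on the animals used. Without KO animal 2, or without any 1 of the WT animals, 1 gene passed, which was on the higher side and among the 12. In each of these fits 0 genes passed as lower. Without KO animal 1 and without KO animal 4, 3 and 8 genes passed, of which 3 and 4 were among the 12. Without KO animal 3, 143 genes passed, with all 12 among them.

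**Figure D5:**
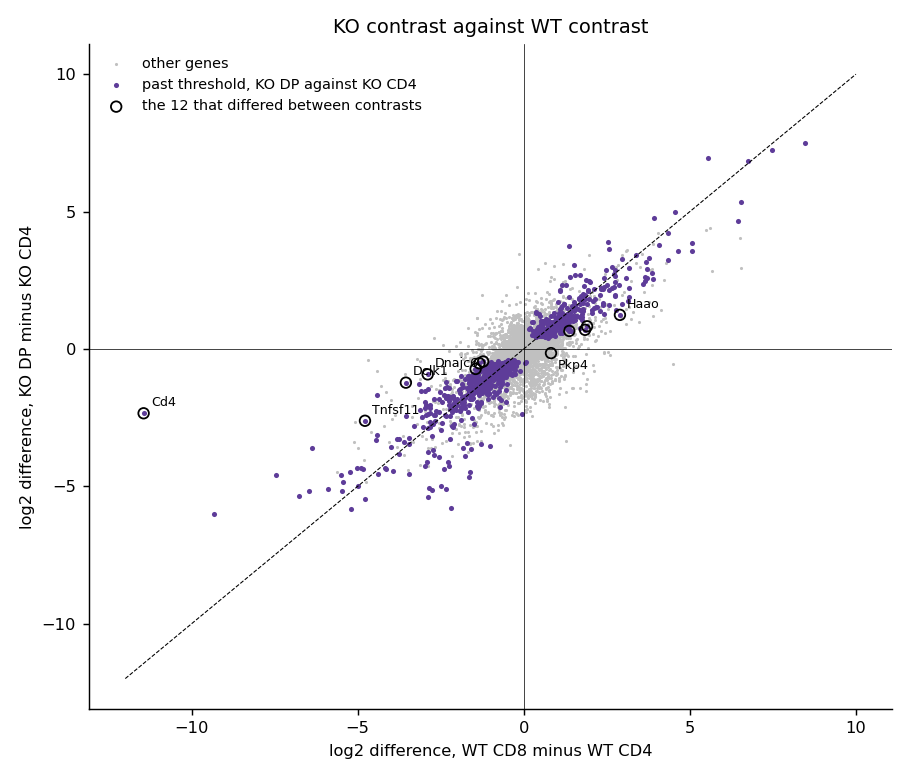
Log2 difference of each gene between WT CD8 and WT CD4 cells (horizontal axis) and between KO DP and KO CD4 cells (vertical axis), with a dashed line at equal differences. Purple points passed the threshold in the KO contrast, and rings mark the 12 genes for which the contrasts differed, of which *Cd4* and *Tnfsf11* lie farthest to the left.

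Set against KO CD8+ cells, with which the contrast above shares the DP libraries, DP cells differed in 1 of 12153 genes (0.00823%), *Cd4*, while 1447 had an unadjusted p under 0.05. Without animal 3 the same fit called 904 genes (7.45%). In that fit, 11 of 17 stem-like and memory genes and 13 of 42 interferon-stimulated genes were lower in DP cells, with 1 higher in each list. DNA replication genes were higher in 12 of 29 and regulatory T cell genes in 7 of 14, with 0 lower in both lists. The differences that follow are those over 4 animals. Side by side, the difference from CD4+ cells and from CD8+ cells was 2.76 and -0.03 for *Prf1*, 3.43 and -0.06 for *Klrk1*, -3.82 and -0.02 for *Cxcr5* and -2.48 and 0.11 for *Maf*. For *Tnfsf11* it was -2.62 and 1.50, and for *Tnfrsf4* -2.14 and 1.01. In every animal DP cells held more *Tnfsf11* and *Tnfrsf4* than CD8+ cells of that animal and less than its CD4+ cells.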

How the data were processed

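The authors aligned reads to mm10 with STAR (version 2.7.2b in the submitters' processing notes), counted stranded reads over exons and divided them by DESeq2 size factors. The deposited values are this normalized count, a signal per gene and library rather than a raw count. Multiplying by the size factor returned whole reads for 100% of the values of 20 libraries, within a relative tolerance of 1e-06.

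Genes with a mean of at least 10 over the libraries of a fit were analysed as log2(normalized count + 1) with limma 3.58.1 (lmFit, eBayes with trend, R 4.3.3) and Benjamini-Hochberg adjustment over all genes tested, so that differences of low genes are understated. Libraries with the same number deviated together from their group means (correlation 0.29 to 0.479, against -0.321 to 0.0649 for other numbers), and the number entered as a block. With 4 pairs an exact 2-sided permutation test of 1 gene cannot go below 0.125, so none was used. The genes given were members of 32 lists, the 12 largest rises and falls among called genes (mean 50 or more, 1 direction in 4 animals, separate groups), and up to 8 genes per direction for which the KO and WT contrasts differed. Some genes that fall under these rules are not reported here. Members and lists were chosen with earlier results of these data known. Scripts were tested on simulated data with 200 changed genes. edgeR 4.0.16 and DESeq2 1.42.0 on whole reads were alternatives. Promoter windows came from the RefSeq annotation of GRCm38.p6, of which mm10 is the same assembly.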

Additional observations from a re-analysis of the deposited data

Results flagged for a closer look

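In groups of 4 libraries, 310 combinations of a described gene and a KO group were examined for 1 library far from the other 3, and 23 stood out, where chance gives about 1 in 20 groups. No cause was tested for any of them.

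In the CD4+ group, animal 1 was far above the others for *Cd8a* (3771 normalized counts), *Cd8b1* (4515), *Ccl5* (17752) and *Smyd1* (48.8). Animal 2 was far above them for *Gzmb* (80806), *Gzmk* (3577) and *Ugcg* (9902) and far below for *Prf1* (2595). *Cd38* was far above in animal 3 (999), and *Dnmt3a* was far below in animal 4 (1385).

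In the DP group, animal 3 held 8 of the 13 values. It was far above the others for *Rag1* (38.5 normalized counts), *Arpp21* (13.7), *Iigp1* (331), *Isg15* (2403) and *Calcb* (1022), and far below for *Lef1* (1961), *Il12rb2* (1702) and *Pkp4* (1089). Animal 1 was far above for *Lrrc32* (27.0) and far below for *Irf4* (1362), animal 2 far below for *Runx1* (1155), and animal 4 far above for *Ier3* (490) and *Amigo2* (22.1).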

How the results depend on the processing

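In the comparison of KO DP with KO CD4 cells, 860 genes passed, 323 higher and 537 lower. Without the animal as a block the counts were 237, 83 and 154, and the pairing of libraries by number moved list counts as given beside each list. They were 161, 72 and 89 without a mean-variance trend, 1775, 773 and 1002 by DESeq2, and 2053, 918 and 1135 in a joint fit of the 12 KO libraries. Leaving out 1 animal gave totals of 186 to 1746, 64 to 781 higher and 114 to 965 lower, lowest without animal 2 or animal 4 and highest without animal 3. Counts under a pseudocount of 10, no filter, a minimum of 50, quantile normalization, a common 75th percentile and edgeR (777 genes) stayed within 1.5 times of 860. Under each of the 14 alternatives that gave them an adjusted p, 32 higher and 47 lower genes passed.

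For KO DP against KO CD8 cells, 1 gene passed, and 0 without a trend, 90 by DESeq2 (30 higher, 60 lower) and 1 to 904 with 1 animal left out (1 to 333 higher, 0 to 571 lower). Where the KO and WT contrasts were compared, 12 genes passed (7 higher, 5 lower). This became 1 (1 and 0) without the block or the trend, 4 (2 and 2) with no filter, 21 (13 and 8) after quantile normalization, 216 (95 and 121) by DESeq2 and 1 to 143 (1 to 69 and 0 to 74) with 1 animal left out, and edgeR gave 3 lower. The direction of 2 described genes turned: with 1 animal left out, *Mki67* ranged from -0.18 (without animal 4) to 0.33 and *Runx3* from -0.12 to 0.18 (without animal 3). Between 4 animals, DP libraries varied more than CD4+ libraries (median SD over genes 0.291 and 0.169 on the log2 scale), which limits what could be detected.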
